A study of Mus musculus with 36 samples.

Results

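The 10 genes described here are the Notch receptors Notch1, Notch2 and Notch3, the Notch ligands Dll1, Dll3, Dll4, Jag1 and Jag2, and the Notch target genes Hes1 and Hes5. They were chosen by name from the 51734 gene symbols of the count table, and all 10 passed the filter on low counts that left 20511 genes. They were followed in 18 of the 36 samples of a study of mouse E14 embryonic stem cells (ESC) and neural precursor cells (NPC) derived from them, which asked how transcription depends on the methyltransferase activity of MLL3 and MLL4. The 18 libraries formed 6 groups of 3: wild type (WT), dCD and MLL2dTAG, each as ESC and as NPC. The dCD cells carry MLL3 and MLL4 without catalytic activity, and the MLL2dTAG cells carry MLL2 with a dTAG degron, a tag that dTAG-13 uses to send a protein for degradation. MLL2, MLL3 and MLL4 are histone H3 lysine 4 methyltransferases. Every library, WT and ESC included, is labelled as treated with dTAG-13, and the NPC also with RA, the usual abbreviation of retinoic acid, so no comparison isolates the compound. Per the labels, NPC received dTAG-13 at 2 µM from day 1 and were collected on day 4 of differentiation. For ESC the treatment time is not given in the sources used here. Each genotype is 1 line, and what its edit does cannot be told apart from how that line differs otherwise. The labels do not say that replicates were separate cultures, so p-values measure the spread between these libraries, which may be technical.

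Notch receptors are single-pass membrane proteins that bind Delta and Jagged ligands on neighbouring cells. Binding exposes the receptor to cleavage by an ADAM protease and then by gamma-secretase, and the freed intracellular domain joins the DNA-binding protein RBPJ and Mastermind coactivators to switch on targets such as Hes1 and Hes5. In the neural tube, these Hes repressors hold progenitors undifferentiated by silencing proneural genes, while the proneural factors raise Dll1 in the cells that leave the progenitor pool. In ESC cultures, Notch signalling is known for its part in the choice of neural fate rather than in self-renewal.

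Total counts were 19.4 to 46 M (mega counts) per library, and each of the 18 libraries was most similar to a library of its own group. Levels are given as CPM, the library-size unit of RNA-seq counts, scaled with TMM factors, which correct for differences in RNA composition. A count of 0 allows up to 3 counts, which is 0.0652 to 0.154 CPM depending on the library. This floor was taken on library totals without TMM factors and assumes independent counts. Reads were not independent molecules, so a count of 0 can allow more than this floor. The labelled cell types were checked against marker lists of 6 genes each. The summed level of the ESC list (such as Pou5f1 and Nanog) was 2420 to 2540 CPM in ESC WT and 28.6 to 29.9 CPM in NPC WT. It was 40.6 to 41.3 CPM in NPC dCD and 151 to 152 CPM in NPC MLL2dTAG. Of its 6 genes, 1 was higher and 1 lower in NPC dCD than in NPC WT, and 4 were not called. In NPC MLL2dTAG, 6 of 6 were higher. Klf4 had 13.2 to 14.8 CPM in NPC WT and 25.3 to 28.2 CPM in NPC dCD. The summed level of the neural progenitor list, most of it Nes, was 67.1 to 75 CPM in ESC WT, 137 to 139 CPM in NPC WT, 279 to 312 CPM in NPC dCD and 190 to 193 CPM in NPC MLL2dTAG. Against NPC WT, 4 of its 6 genes were higher and 0 lower in dCD, and 2 were higher and 1 (Pax6, 38.9 to 26.4 CPM) lower in MLL2dTAG; Sox1 was not called between ESC WT and NPC WT (3.05 and 3.10 CPM). The endoderm list, such as Gata4 and Sox17, summed to 14.3 to 15.6 CPM in ESC WT, 205 to 213 CPM in NPC WT, 177 to 184 CPM in NPC dCD and 510 to 524 CPM in NPC MLL2dTAG, where 6 of 6 genes were higher than in NPC WT. The presomitic and somitic list summed to 25 to 25.4 CPM in ESC WT and 13.3 to 14.7 CPM in NPC WT. It had 5.44 to 6.5 CPM in NPC dCD and 12.2 to 13.3 CPM in NPC MLL2dTAG. Only Msgn1 among its 6 genes was at 0 counts, and this in all 6 groups. Of the 5 genes tested, 0 were higher and 3 lower in dCD than in NPC WT, and 0 higher and 2 lower in MLL2dTAG. These are bulk cultures, in which fewer cells of a type and less RNA per cell cannot be told apart.

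Promoter sequences are shown for the member whose promoter held the RBPJ motif and for the ligand that was lower in ESC and higher in NPC of both edited lines than in WT. They were taken from RefSeq (GRCm38.p6) as the 250 bases before each transcription start. Of the 10 genes, 9 matched, with 10 starts, and Hes1 was not matched. The Hes5 promoter lies at chr4:154960673-154960922 on the plus strand, and the upstream start of Dll1 has its promoter at chr17:15376933-15377182 on the minus strand. Capitals mark the RBPJ core GTGGGAA, on either strand, in Hes5 and the E-box CANNTG, the site of basic helix-loop-helix factors, in Dll1.
Hes5: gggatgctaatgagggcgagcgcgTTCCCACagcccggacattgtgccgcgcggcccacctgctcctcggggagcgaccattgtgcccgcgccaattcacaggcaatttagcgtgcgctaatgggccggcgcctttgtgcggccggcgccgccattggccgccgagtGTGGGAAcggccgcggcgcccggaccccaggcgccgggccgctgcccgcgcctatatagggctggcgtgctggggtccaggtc
Dll1: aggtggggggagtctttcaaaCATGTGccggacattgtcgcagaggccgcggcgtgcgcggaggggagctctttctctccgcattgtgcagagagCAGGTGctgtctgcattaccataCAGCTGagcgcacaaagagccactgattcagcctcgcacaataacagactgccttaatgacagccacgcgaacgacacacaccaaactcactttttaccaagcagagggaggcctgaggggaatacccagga
Hes5 held 2 copies of the RBPJ core. The first base of one lay at -226 from the start, as the reverse complement, and that of the other at -83, as written. At least 1 copy was found in 5.42% of the 32851 promoters of the same length and 2 or more in 0.161%, and none of the other 9 starts of these genes held one. The upstream promoter of Dll1 shown held 3 E-boxes and that of its other start (chr17:15375824-15376073) 1, a motif found in 66.2% of promoters, with 2 or more in 31.8%. Copies of the RBPJ core and of the E-box did not overlap in the starts of these genes. The N-box CACNAG, a site of Hes repressors, was found once in the promoters of Notch1, Notch2 and Dll4 and 2 times in that of Notch3, against 36.7% of promoters with at least 1 copy. CpG dinucleotides were frequent in some of these promoters, with 54 in Jag2, 34 in Notch2 and 32 in Hes5, against a median of 6 over all promoters. As many as in Jag2 were found in 0.0152% of promoters. These matches describe the letters of the windows and are not measured binding.

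During differentiation of WT cells, the ligands Dll1, Jag1 and Jag2 fell 3.73- to 7.46-fold, and Notch2 rose 2.82-fold. Of the 10 genes, 4 were higher in NPC than in ESC (Notch2, Notch3, Dll4 and Hes5), 5 were lower (Notch1, Dll1, Dll3, Jag1 and Jag2) and Hes1 was not called. A gene was called at an adjusted p under 0.05 in the edgeR quasi-likelihood test over all genes. Most genes differed between the stages: 79.5% of those tested were called, 39.1% higher and 40.4% lower. The median log2 fold change of the 10 genes was -0.28, against -0.04 over all genes tested. In dCD cells the same stage comparison called all 10 genes, 6 higher and 4 lower (77.6% of all genes, 38.7% higher and 39.0% lower), with a median of 0.53 against -0.02. In MLL2dTAG cells it called 5 higher and 3 lower (78.2% of all genes, 39.9% higher and 38.3% lower), with a median of 0.30 against 0.

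In ESC, Dll1, Jag2 and Notch3 were lower in both edited lines, and no member was called higher than in WT. In dCD, 5 fell (Notch1, Notch3, Dll1, Jag1 and Jag2) and 5 were not called. The background was 48.3% of all genes called, 25.7% higher and 22.6% lower. The median over the 10 genes was -0.46, against 0.02 over all genes. In MLL2dTAG, 5 fell (Notch2, Notch3, Dll1, Dll3 and Jag2) and 5 were not called. There, 56.9% of all genes were called, 28.7% higher and 28.2% lower, and the median was -0.60 against 0 over all genes. The 2 comparisons share the WT libraries.

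In NPC, the members moved in both directions. In dCD, 5 were higher than in WT (Notch2, Notch3, Dll1, Jag1 and Hes1), Jag2 was lower and 4 were not called. The background there was 53.5% called, 26.7% higher and 26.8% lower, and the median was 0.26 against -0.02 over all genes. In MLL2dTAG, 4 were higher (Notch2, Dll1, Jag1 and Hes1), 5 were lower (Notch1, Notch3, Dll3, Dll4 and Jag2) and Hes5 was not called. Of all genes, 61.7% were called, 33.3% higher and 28.4% lower, and the median was -0.08 against 0.03. Without NPC WT replicate 2, 5 of these 9 calls were left, the lowest count with any 1 library left out.

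**Figure D1:**
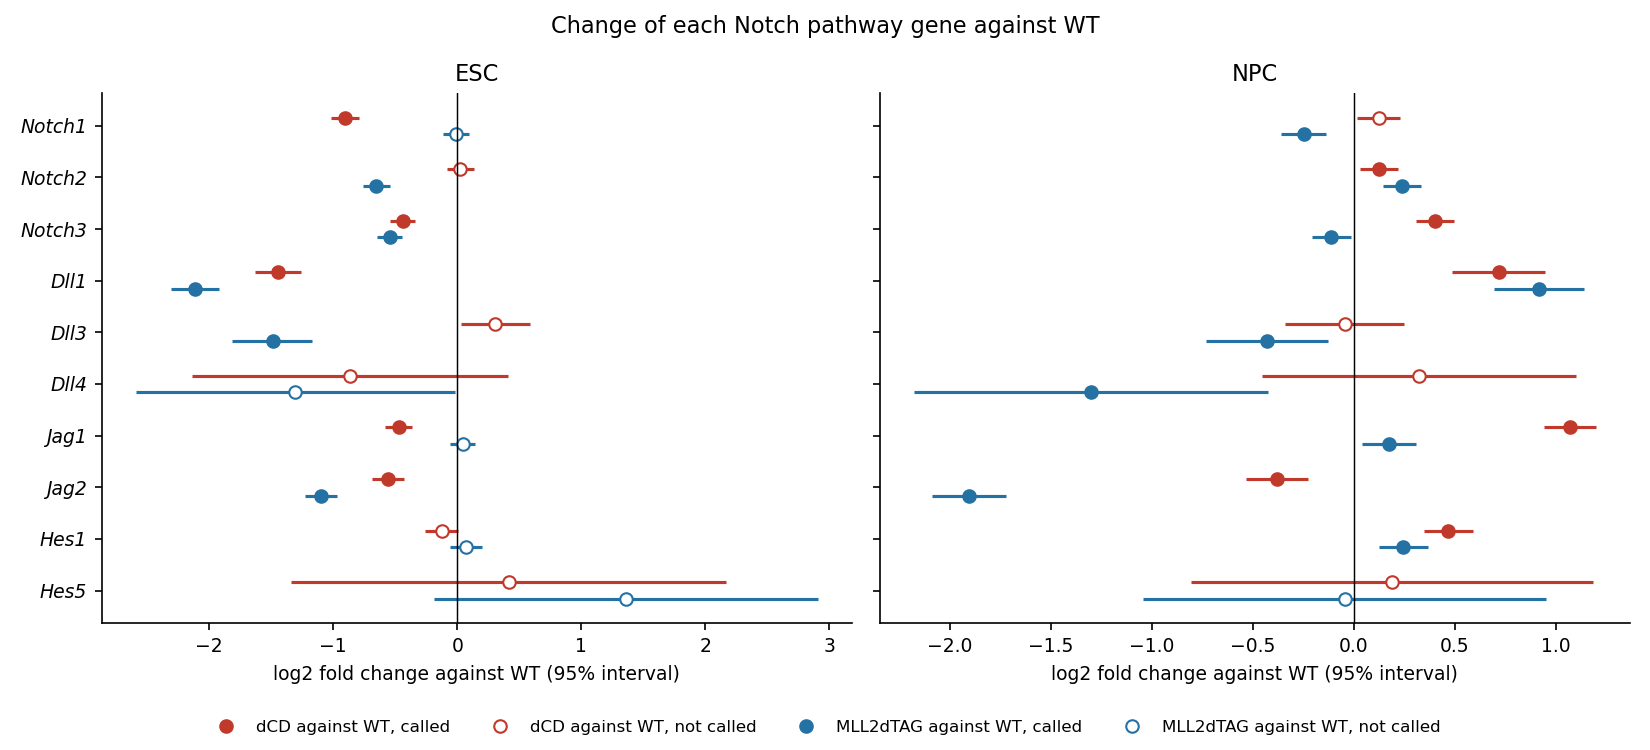
The log2 fold change of each of the 10 genes against WT is plotted on the horizontal axis in ESC (left) and NPC (right), with dCD in red and MLL2dTAG in blue; lines are 95% intervals, and filled points passed the test. All filled points in ESC lie to the left of 0, from -2.11 to -0.44, and those in NPC lie on both sides.

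The edited lines were also compared with each other. In ESC, MLL2dTAG was above dCD for Notch1, Jag1 and Hes1 and below it for Notch2, Dll1, Dll3 and Jag2 (47.2% of all genes called, 23.4% higher and 23.7% lower), with a median of -0.27 against -0.01. In NPC, MLL2dTAG was above dCD for Notch2 and below it for 7 genes, Dll1 and Hes5 being not called (55.9% of all genes called, 31.6% higher and 24.3% lower), with a median of -0.38 against 0.05.

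The interaction with stage is the change against WT in NPC minus the change against WT in ESC. For dCD it was called for 5 members, all with the higher value in NPC (Notch1, Notch3, Dll1, Jag1 and Hes1). Of all genes, 42.9% had a called interaction, 20.0% positive and 22.9% negative, and the median was 0.72 against -0.04. For MLL2dTAG it was called for 6 members, positive for Notch2, Notch3, Dll1 and Dll3 and negative for Notch1 and Jag2. Of all genes, 49.0% had one, 26.4% positive and 22.6% negative, and the median was 0.15 against 0.05.

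**Figure D2:**
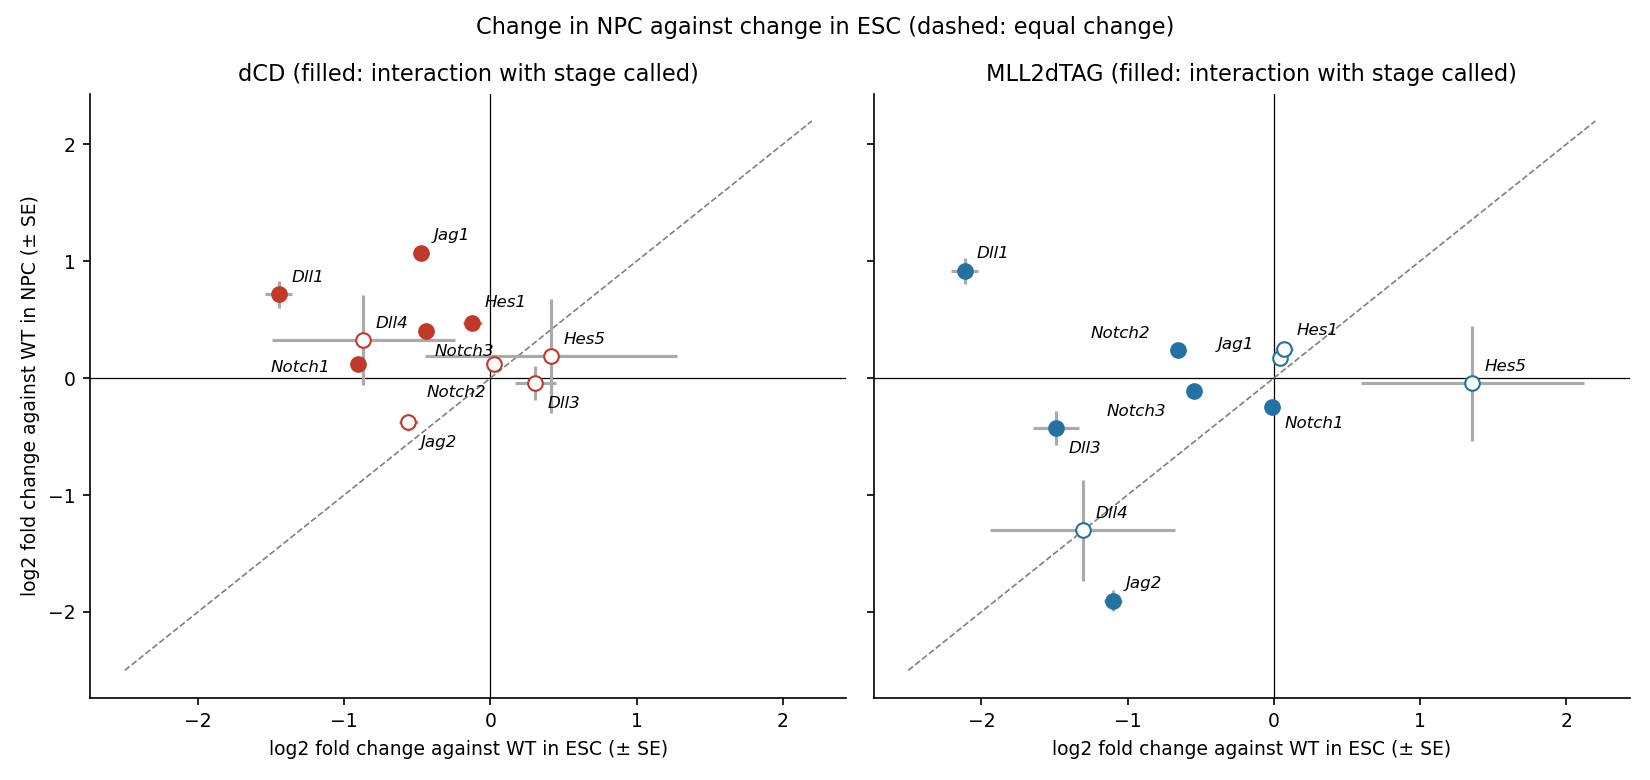
Each point is 1 gene, with its log2 fold change against WT in ESC on the horizontal axis and in NPC on the vertical axis (bars are SE), for dCD (left) and MLL2dTAG (right); the dashed line marks an equal change at both stages and filled points had a called interaction. Dll1 lies far above the line in both panels, with interactions of 2.16 and 3.03, and Jag2 lies close to it in dCD and below it in MLL2dTAG.

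Notch1 (ENSMUSG00000026923.15, chr2:26457903-26516663, minus strand, GENCODE vM21 on GRCm38) encodes the receptor most studied in neural and blood progenitors. Notch1 in ESC measured 84.2, 102 and 89.0 CPM in WT, 51.1, 49.6 and 46.9 in dCD, and 90.9, 92.0 and 91.8 in MLL2dTAG. In NPC it measured 62.4, 68.2 and 60.2 CPM in WT, 70.6, 67.1 and 70.2 in dCD, and 53.4, 51.4 and 56.1 in MLL2dTAG. All 3 ESC dCD libraries thus lay below all others of ESC, and the MLL2dTAG libraries lay within the WT range. The dCD level in ESC was 1.87-fold below WT (log2 fold change -0.91 ± 0.056 SE, adjusted p = 1.7e-15), and the MLL2dTAG level did not differ detectably (-0.01, 95% interval -0.12 to 0.10). In NPC the order changed: MLL2dTAG was 1.19-fold below WT (-0.25 ± 0.054, adjusted p = 0.00014; -0.13 with offsets for GC content and length). The dCD change there was 0.12 ± 0.053, which missed the threshold (adjusted p = 0.051) and passed it under 9 of 28 alternatives, among them without ESC WT replicate 1 or 2 (adjusted p = 0.032 and 0.013), NPC WT replicate 2 (0.18, adjusted p = 0.011) or NPC dCD replicate 2 (0.15, adjusted p = 0.042). From ESC to NPC, Notch1 fell in WT (-0.53 ± 0.053) and in MLL2dTAG (-0.77 ± 0.053) and rose in dCD (0.49 ± 0.056). With offsets for GC content and length, the rise in dCD became a fall (-0.30, adjusted p = 7e-08), and the falls became -1.20 and -1.35. The interaction was 1.03 ± 0.078 for dCD and -0.24 ± 0.075 for MLL2dTAG (adjusted p = 2.6e-13 and 0.0081).

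Notch2 (ENSMUSG00000027878.11, chr3:98013527-98150361, plus strand) encodes a receptor widely expressed in embryonic tissues. Notch2 in ESC measured 64.0, 79.4 and 68.6 CPM in WT, 73.4, 71.7 and 71.6 in dCD, and 49.7, 42.6 and 43.6 in MLL2dTAG. NPC levels were 200.8, 200.5 and 200.6 CPM in WT, 219, 217 and 220 in dCD, and 237, 233 and 241 in MLL2dTAG. Every NPC library was above every ESC library, and within NPC the 3 genotypes did not overlap. Notch2 rose 2.82-fold in WT (1.5 ± 0.050, adjusted p = 6.8e-25), 3.03-fold in dCD (1.60 ± 0.050; 1.05 with offsets for GC content and length) and 5.24-fold in MLL2dTAG. MLL2dTAG was 1.57-fold below WT in ESC (-0.65 ± 0.054, adjusted p = 9.9e-13) and 1.18-fold above it in NPC (0.24 ± 0.046, adjusted p = 2.7e-05; 0.15 with upper-quartile scaling), with an interaction of 0.89 ± 0.071. In ESC dCD it was not called (0.02, 95% interval -0.09 to 0.13), except without ESC WT replicate 2 (0.12, adjusted p = 0.034). In NPC dCD it was 1.09-fold above WT (0.13 ± 0.046, adjusted p = 0.021), a call lost without NPC WT replicate 2 or NPC dCD replicate 3 (0.13 and 0.12, adjusted p = 0.05 and 0.056). The dCD interaction (0.10 ± 0.070) was called only without ESC WT replicate 1 (0.16, adjusted p = 0.043). The difference between MLL2dTAG and dCD in NPC was small (0.11 ± 0.046, adjusted p = 0.035) and lost under 12 of 28 alternatives, down to 0.03 with upper-quartile scaling and including each NPC dCD library and NPC MLL2dTAG replicates 1 and 3 left out (adjusted p = 0.064 to 0.11).

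Notch3 (ENSMUSG00000038146.8, chr17:32120820-32166852, minus strand) encodes a receptor known above all from vascular mural cells. Notch3 in ESC measured 150, 179 and 157 CPM in WT, 122, 120 and 117 in dCD, and 110, 111 and 113 in MLL2dTAG. The NPC libraries measured 182, 201 and 182 CPM in WT, 262, 236 and 249 in dCD, and 179, 168 and 175 in MLL2dTAG. The dCD libraries were thus below WT in ESC and above WT in NPC, with no overlap at either stage. In ESC both lines fell, dCD 1.35-fold (-0.44 ± 0.050, adjusted p = 3.3e-09) and MLL2dTAG 1.46-fold (-0.54 ± 0.049, adjusted p = 8.6e-12). In NPC dCD it rose 1.32-fold (0.40 ± 0.047, adjusted p = 3.2e-09), which gave an interaction of 0.84 ± 0.068. The MLL2dTAG change in NPC was small (-0.11 ± 0.047, adjusted p = 0.04). It turned to 0.05 with offsets for GC content and length and missed the threshold without ESC MLL2dTAG replicate 3 (adjusted p = 0.053), NPC WT replicate 2 (-0.06, adjusted p = 0.31), or NPC MLL2dTAG replicate 2 or 3 (adjusted p = 0.16 and 0.073). The MLL2dTAG interaction was 0.43 ± 0.068. The rise in WT from ESC to NPC (0.21 ± 0.048, adjusted p = 0.00015) reversed to -0.30 with those offsets. MLL2dTAG and dCD did not differ detectably in ESC (-0.11, 95% interval -0.21 to 0, adjusted p = 0.08), but did under 5 of 28 alternatives. These were offsets for GC content and length (-0.21, adjusted p = 1.2e-05), upper-quartile scaling (-0.16, adjusted p = 0.011), a fit on the groups compared alone (-0.11, adjusted p = 0.0036), and ESC WT replicate 1 or 2 left out (adjusted p = 0.049 and 0.021).

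The summed level of mural and mesenchymal markers (6 genes, none at 0 counts) was 605 to 625 CPM in NPC WT, 1240 to 1350 CPM in NPC dCD and 1250 to 1270 CPM in NPC MLL2dTAG. Against NPC WT, 4 of the 6 were higher and 1 lower in dCD, and 4 higher and 2 lower in MLL2dTAG. Acta2, a smooth muscle actin, had 40.5 CPM in NPC WT and rose to 541 CPM in dCD and 219 CPM in MLL2dTAG. Pdgfrb, the receptor typical of mural cells, fell from 36.9 CPM to 18.6 and 25.4 CPM, and Col1a1 fell from 156 CPM to 99.8 CPM in MLL2dTAG. Their part in the level of Notch3 was not tested.

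Per length, the receptor makeup shifted between stages. Levels of different genes are compared here as CPM per kb of merged exons. The receptor sum is that of Notch1, Notch2 and Notch3, without Notch4. Among ESC, MLL2dTAG had the most Notch4 (49.4 CPM), above WT (23.2 CPM) and dCD (15.7 CPM). Notch4 was not taken per kb, so sums and shares that include it were not tested. In ESC WT, Notch3 made up 60.6 ± 0.304% (SD, n = 3) of the receptor sum, Notch2 19.8 ± 0.254% and Notch1 19.5 ± 0.0552%. In NPC WT, Notch2 made up 40.2 ± 1.4% and Notch1 9.64 ± 0.301%. The receptor sum in ESC was 33 ± 3.28 CPM per kb for WT, 25 ± 0.537 for dCD and 24.4 ± 0.2 for MLL2dTAG. In NPC it was 46.3 ± 1.62 in WT, 55.9 ± 1.83 in dCD and 47.3 ± 1.08 in MLL2dTAG, so that the dCD libraries (54 to 57.7) lay above the other NPC libraries (45.3 to 48.2). Notch1 took its smallest ESC share in dCD (13.8 ± 0.31%) and its largest in MLL2dTAG (26.4 ± 0.353%). Notch2 had the largest mean share in NPC MLL2dTAG, at 46.5 ± 0.563% against 45.6 ± 0.681% for Notch3, but the ranges overlapped (45.8 to 46.9% and 45.1 to 46.3%). In replicate 1 of that group, Notch3 was above Notch2 (22.2 against 21.9 CPM per kb).

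**Figure D3:**
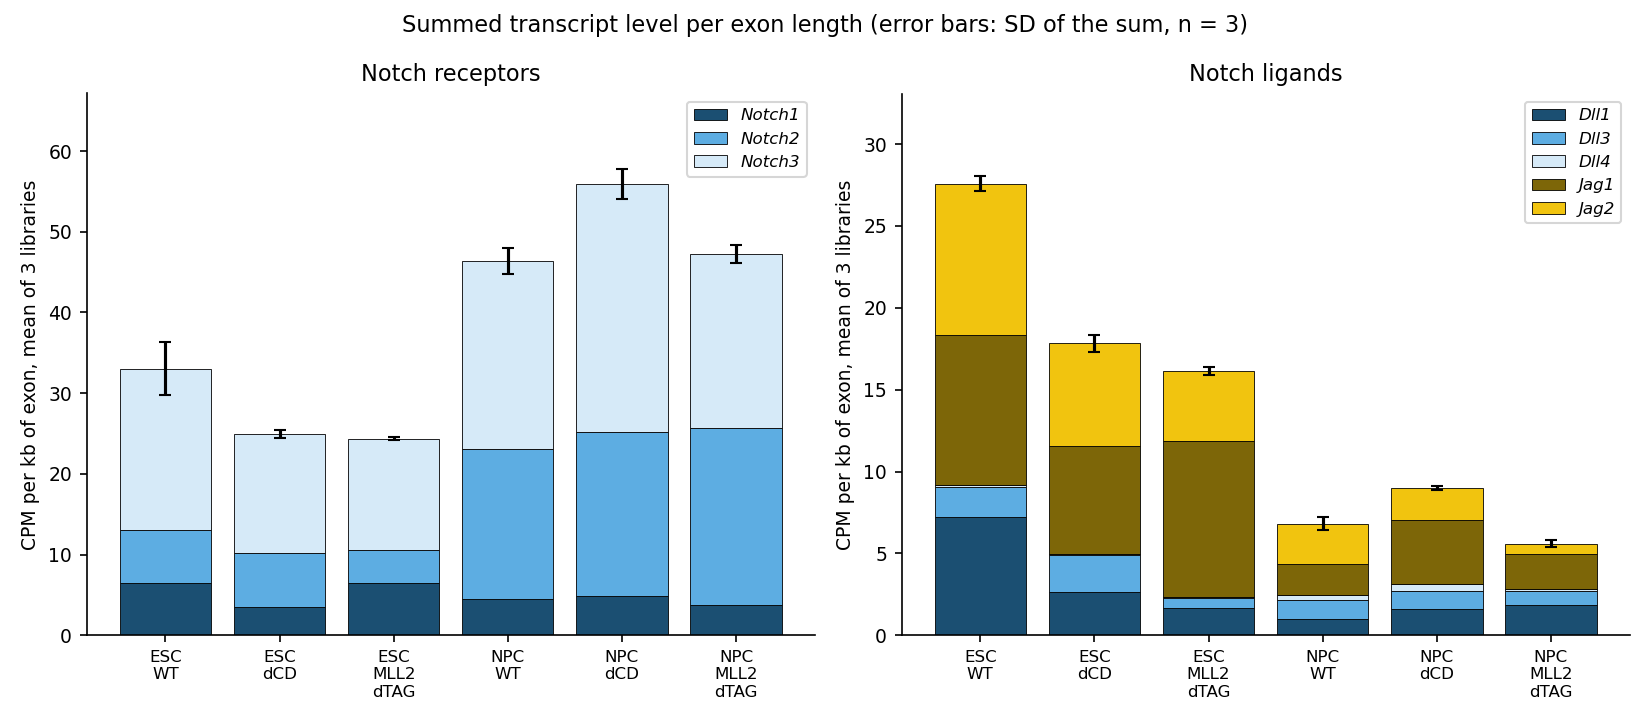
Stacked bars give the mean level of Notch1, Notch2 and Notch3 (left) and of each ligand (right) in CPM per kb of exon over 3 libraries of each group. Error bars give the SD of the sum, and Notch4 is not included. The receptor sum is higher in NPC and the ligand sum is higher in ESC, with 27.6 in ESC WT and 6.81 in NPC WT for the ligands.

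Dll1 (ENSMUSG00000014773.13, chr17:15367354-15376872, minus strand) encodes the Delta ligand of newly formed neurons and of the somite clock. Dll1 in ESC measured 30.8, 29.4 and 31.6 CPM in WT, 12.8, 10.3 and 10.6 in dCD, and 7.66, 6.52 and 7.05 in MLL2dTAG. Its NPC values were 4.18, 4.15 and 3.97 CPM in WT, 6.66, 7.23 and 6.31 in dCD, and 6.76, 7.88 and 8.51 in MLL2dTAG. WT was therefore the highest of the genotypes in ESC and the lowest in NPC, with no overlap with either line. In ESC, Dll1 fell 2.73-fold in dCD (-1.45 ± 0.091, adjusted p = 2e-15) and 4.33-fold in MLL2dTAG (-2.11 ± 0.094, adjusted p = 3.1e-20). In NPC it rose 1.64-fold in dCD (0.72 ± 0.113, adjusted p = 1.3e-06) and 1.89-fold in MLL2dTAG (0.92 ± 0.110, adjusted p = 3.6e-09). The interactions were 2.16 ± 0.145 and 3.03 ± 0.145 (adjusted p = 1.1e-14 and 4e-19). All of these calls stood under each of the 28 alternatives. The fall over differentiation was 7.46-fold in WT (-2.90 ± 0.103) and 1.66-fold in dCD (-0.74 ± 0.102), and in MLL2dTAG the stages did not differ detectably (0.13, 95% interval -0.07 to 0.34, adjusted p = 0.23). The lines differed from each other in ESC (-0.67 ± 0.102, adjusted p = 1.2e-06). In NPC that difference was 0.20 ± 0.101 (adjusted p = 0.092), and it was called without NPC MLL2dTAG replicate 1 (0.28, adjusted p = 0.026) or with offsets for GC content and length (0.23, adjusted p = 0.048). The neuron marker list (6 genes, none at 0 counts in NPC) summed to 257 to 262 CPM in NPC WT, 391 to 421 CPM in NPC dCD and 250 to 264 CPM in NPC MLL2dTAG. In NPC dCD 4 of its genes were higher than in WT and 1 lower, and in NPC MLL2dTAG 3 were higher and 2 lower. From NPC WT to NPC dCD, Stmn2 went from 25.7 to 93.9 CPM and Rbfox3 from 5.13 to 3.65 CPM. Dcx had 81.4 and 77.3 CPM, with overlapping ranges (77.0 to 84.8 and 75.4 to 80.3 CPM). The list summed to 381 to 457 CPM in ESC WT, 327 CPM of it Stmn2, so its sum is not specific to neurons. The part of this list in the level of Dll1 was not tested.

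Dll3 (ENSMUSG00000003436.11, chr7:28293553-28302238, minus strand) encodes a divergent Delta protein that does not activate Notch on other cells and acts inside the cell that makes it. Dll3 in ESC measured 5.43, 5.37 and 4.62 CPM in WT, 5.68, 6.42 and 6.90 in dCD, and 1.58, 1.80 and 2.04 in MLL2dTAG. As NPC, the libraries had 3.07, 3.65 and 3.30 CPM in WT, 3.16, 3.42 and 3.14 in dCD, and 2.61, 2.38 and 2.48 in MLL2dTAG. The MLL2dTAG libraries were the lowest at each stage and overlapped with no other group of that stage. Dll3 fell 2.81-fold in ESC MLL2dTAG (-1.49 ± 0.159, adjusted p = 3e-10) and 1.35-fold in NPC MLL2dTAG (-0.43 ± 0.148, adjusted p = 0.012), with an interaction of 1.06 ± 0.217. The NPC call was lost without NPC WT replicate 2 (-0.36, adjusted p = 0.066) and with GC and length offsets (-0.30, adjusted p = 0.084). In ESC dCD the change was 0.31 ± 0.138 (adjusted p = 0.063), called without ESC dCD replicate 1 (0.38, adjusted p = 0.04), with DESeq2 (0.32, adjusted p = 0.05) and with GC and length offsets (0.35, adjusted p = 0.04), and in NPC dCD it was -0.05 (95% interval -0.34 to 0.25). Over differentiation Dll3 fell in WT (-0.61 ± 0.142) and dCD (-0.97 ± 0.140) and rose in MLL2dTAG (0.45 ± 0.164, adjusted p = 0.013), the last not called without ESC MLL2dTAG replicate 1 (0.37, adjusted p = 0.06), with upper-quartile scaling (0.33) or with GC and length offsets (0.35). MLL2dTAG was below dCD in ESC (-1.80 ± 0.156) and in NPC (-0.38 ± 0.149, adjusted p = 0.027), the latter lost without NPC dCD replicate 2 or NPC MLL2dTAG replicate 2 or 3 (adjusted p = 0.057 to 0.088) and with GC and length offsets (-0.24).

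Dll4 (ENSMUSG00000027314.6, chr2:119325784-119335962, plus strand) encodes the Delta ligand of endothelial tip cells and early thymus. It was scarce: Dll4 in ESC measured 0, 0.730 and 0.612 CPM in WT, 0.0854, 0.414 and 0.298 in dCD, and 0.293, 0.279 and 0.0522 in MLL2dTAG, from 0 to 22 counts a library. NPC levels were 1.33, 1.65 and 0.950 CPM in WT, 2.12, 1.21 and 1.61 in dCD, and 0.356, 0.685 and 0.522 in MLL2dTAG. Within NPC the MLL2dTAG libraries lay below all others. Dll4 fell 2.46-fold in NPC MLL2dTAG (-1.30 ± 0.432, adjusted p = 0.0081), which missed the threshold without NPC WT replicate 2 (-1.09, adjusted p = 0.055), and it was 3.08-fold below dCD (-1.63 ± 0.426, adjusted p = 0.0011). It rose over differentiation 2.65-fold in WT and 6.05-fold in dCD. The rise in MLL2dTAG (1.41 ± 0.601, adjusted p = 0.025) was lost without ESC MLL2dTAG replicate 3 (0.89, adjusted p = 0.17) or NPC MLL2dTAG replicate 2 (1.15, adjusted p = 0.11). In ESC neither line was called (-0.87 with an interval of -2.14 to 0.41, and -1.31 with -2.59 to -0.02), but without ESC WT replicate 1, the library at 0, both were (-1.31 and -1.75, adjusted p = 0.039 and 0.0049), and so was the dCD interaction (1.63, adjusted p = 0.03). With no filter on low counts the ESC MLL2dTAG change was also called (-1.26, adjusted p = 0.032). Gm14207, a transcript on the opposite strand that shares 214 exon bases with Dll4, had 130 counts over the 18 libraries against 448 for Dll4. The libraries came from a stranded kit, but whether the strand was used in counting is not given in the sources used here. Opposite-strand transcripts also share exon bases with Notch1 (1068 and 414), Notch3 (488), Dll1 (867) and Hes5 (433 of its 1363).

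As a list, the endothelial markers had 62.5 to 65.1 CPM in NPC WT, 45.3 to 48.4 CPM in NPC dCD and 218 to 224 CPM in NPC MLL2dTAG. Most of it was Kdr, with 59.5, 43.8 and 209 CPM, and none of its 6 genes was at 0 counts. Cdh5, an endothelial cadherin, had 0.925 CPM in NPC WT and 4.52 CPM in NPC MLL2dTAG. In NPC MLL2dTAG 4 of the 6 genes were higher than in NPC WT and 0 lower, and in NPC dCD 0 were higher and 2 lower. The part of this list in the level of Dll4 was not tested.

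Jag1 (ENSMUSG00000027276.7, chr2:137081456-137116644, minus strand) encodes a Jagged ligand used in sensory organs, vessels and bile ducts. Jag1 in ESC measured 52.9, 55.7 and 52.3 CPM in WT, 37.6, 39.6 and 38.7 in dCD, and 54.7, 55.8 and 55.5 in MLL2dTAG. The NPC libraries measured 11.3, 10.7 and 10.6 CPM in WT, 21.7, 23.7 and 22.9 in dCD, and 12.6, 11.7 and 12.5 in MLL2dTAG. The dCD libraries were the lowest of the ESC and the highest of the NPC, with no overlap. Jag1 fell 1.39-fold in ESC dCD (-0.47 ± 0.053, adjusted p = 2.4e-09) and rose 2.10-fold in NPC dCD (1.07 ± 0.063, adjusted p = 7e-17), an interaction of 1.54 ± 0.082. In MLL2dTAG it was not called in ESC (0.04, 95% interval -0.06 to 0.15). In NPC MLL2dTAG it was 1.13-fold higher (0.18 ± 0.066, adjusted p = 0.021), a call lost under 8 of 28 alternatives: 0.08 with upper-quartile scaling, 0.09 with library totals alone, 0.14 with no filter on low counts, 0.13 in a fit on the groups compared alone, and 0.15 to 0.16 without NPC WT replicate 2 or 3 or NPC MLL2dTAG replicate 1 or 3 (adjusted p = 0.06 to 0.07). The MLL2dTAG interaction was not called (0.13, 95% interval -0.04 to 0.30). From ESC to NPC Jag1 fell 4.94-fold in WT, 4.51-fold in MLL2dTAG and 1.70-fold in dCD.

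Jag2 (ENSMUSG00000002799.6, chr12:112907819-112929776, minus strand) encodes the second Jagged ligand, known from limb and thymus development. Jag2 in ESC measured 61.8, 65.9 and 64.6 CPM in WT, 47.6, 39.8 and 43.4 in dCD, and 30.9, 28.3 and 30.8 in MLL2dTAG. Its NPC values were 16.9, 18.8 and 15.8 CPM in WT, 14, 12.5 and 13.3 in dCD, and 4.57, 4.46 and 4.75 in MLL2dTAG. At both stages WT was highest, dCD next and MLL2dTAG lowest, with no overlap between the groups. Jag2 fell 1.47-fold in ESC dCD (-0.56 ± 0.063, adjusted p = 2.7e-09), 2.14-fold in ESC MLL2dTAG (-1.10 ± 0.063, adjusted p = 7e-17), 1.30-fold in NPC dCD (-0.38 ± 0.075, adjusted p = 5.6e-05) and 3.75-fold in NPC MLL2dTAG (-1.91 ± 0.091, adjusted p = 4.8e-20). Those calls stood under all 28 alternatives. MLL2dTAG was also below dCD at both stages (-0.54 ± 0.065 in ESC and -1.53 ± 0.093 in NPC). Its decrease was larger in NPC, with an interaction of -0.81 ± 0.111 (adjusted p = 1.1e-07). For dCD the interaction was 0.18 ± 0.098 (adjusted p = 0.14), and it was called without ESC dCD replicate 1 or NPC WT replicate 2 (0.25 and 0.26, adjusted p = 0.044 and 0.042). Over differentiation Jag2 fell 3.73-fold in WT, 3.29-fold in dCD and 6.53-fold in MLL2dTAG. Offsets for GC content and length moved the first 2 from -1.90 and -1.72 to -2.53 and -2.47 on the log2 scale.

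Per length, Jag1 and Jag2 each made up 33.4% of the ligand sum in ESC WT (SD 0.737 and 0.611, n = 3) and Dll1 26.3 ± 1.31%. The sum was 27.6 ± 0.46 CPM per kb there, 17.8 ± 0.51 in ESC dCD and 16.2 ± 0.248 in ESC MLL2dTAG. Jag1 reached 58.7 ± 1.36% in ESC MLL2dTAG, where Dll1 and Jag2 were low. In NPC the sums were 6.81 ± 0.398 in WT, 8.97 ± 0.12 in dCD and 5.6 ± 0.213 in MLL2dTAG, with no overlap. The leading ligand by mean share was Jag2 in NPC WT (36.2 ± 1.1%), Jag1 in NPC dCD (43.6 ± 1.73%) and Jag1, followed by Dll1 at 32.6 ± 2.7%, in NPC MLL2dTAG (37.6 ± 1.97%). Dll1 had 14.3 ± 0.571% in NPC WT.

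**Figure D4:**
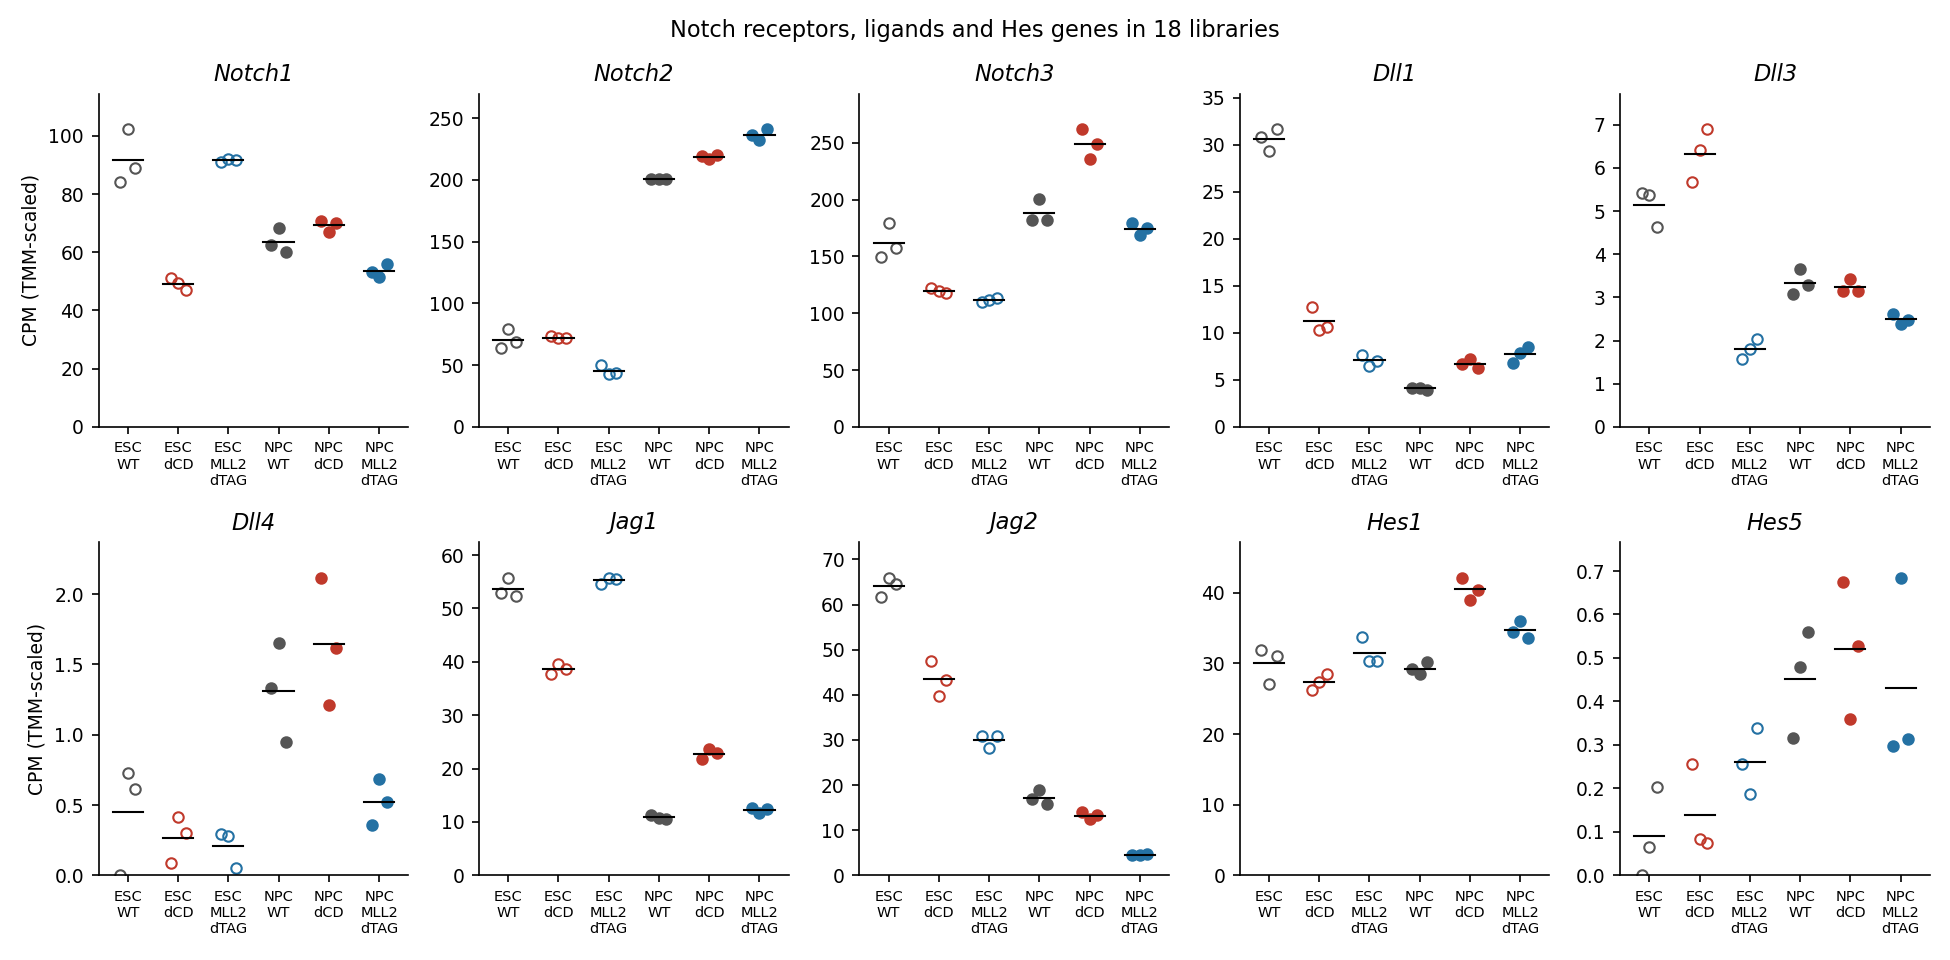
CPM of each of the 10 genes is plotted on the vertical axis for the 6 groups, with each library as a point, open for ESC and filled for NPC, and the mean of 3 as a line. WT is grey, dCD red and MLL2dTAG blue. Dll1 is highest in ESC WT (29.4 to 31.6 CPM) and lowest in NPC WT, and Hes5 is at 0.685 CPM or less in every library.

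Hes1 (ENSMUSG00000022528.8, chr16:30064384-30067796, plus strand) encodes a basic helix-loop-helix repressor that Notch, and in ESC also other signals, can induce. Hes1 in ESC measured 31.8, 27.1 and 31.0 CPM in WT, 26.2, 27.3 and 28.5 in dCD, and 33.7, 30.4 and 30.3 in MLL2dTAG. As NPC, the libraries had 29.2, 28.4 and 30.2 CPM in WT, 42.1, 39.0 and 40.4 in dCD, and 34.4, 36.0 and 33.6 in MLL2dTAG. The ESC groups overlapped with WT, and the 3 NPC groups did not overlap. Hes1 rose 1.38-fold in NPC dCD (0.47 ± 0.059, adjusted p = 2e-08) and 1.19-fold in NPC MLL2dTAG (0.25 ± 0.059, adjusted p = 0.00051; 0.15 with upper-quartile scaling). The dCD level was above MLL2dTAG (difference of MLL2dTAG from dCD -0.22 ± 0.058, adjusted p = 0.0012). In ESC, dCD was not called (-0.12, 95% interval -0.26 to 0.01), except without ESC WT replicate 2 (-0.20, adjusted p = 0.014) and with GC and length offsets (-0.25), and neither was MLL2dTAG (0.07, 95% interval -0.06 to 0.20). MLL2dTAG exceeded dCD in ESC by 0.20 ± 0.063 (adjusted p = 0.01), a call lost with upper-quartile scaling (0.14, adjusted p = 0.057) and without ESC dCD replicate 1 or ESC MLL2dTAG replicate 1 (0.17 and 0.15, adjusted p = 0.058 and 0.083). The difference was 0.35 after correction for GC content and length. The dCD interaction was 0.59 ± 0.088 (adjusted p = 8.2e-07). The MLL2dTAG interaction was 0.17 ± 0.086 (adjusted p = 0.097), called without ESC WT replicate 2 or ESC MLL2dTAG replicate 1 (0.25 and 0.22, adjusted p = 0.013 and 0.039).

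Over differentiation of WT cells Hes1 did not differ detectably (-0.03, 95% interval -0.16 to 0.10, adjusted p = 0.68), while with offsets for GC content and length it was higher in NPC (0.22, adjusted p = 0.00059). It rose 1.48-fold in dCD (0.56 ± 0.062, adjusted p = 3e-10; 0.89 with offsets for GC content and length). The rise of 1.11-fold in MLL2dTAG (0.14 ± 0.059, adjusted p = 0.027) was lost with upper-quartile scaling (0.02), with a filter at a mean of 1 CPM (0.12, adjusted p = 0.056) and without ESC MLL2dTAG replicate 2 or 3 or NPC MLL2dTAG replicate 2 (0.11 to 0.12, adjusted p = 0.097 to 0.12).

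Hes5 (ENSMUSG00000048001.7, chr4:154960923-154962371, plus strand), the gene whose promoter with 2 RBPJ cores is shown above, encodes the Hes repressor typical of neural progenitors. Hes5 in ESC measured 0, 0.0663 and 0.204 CPM in WT, 0.256, 0.0828 and 0.0746 in dCD, and 0.256, 0.186 and 0.339 in MLL2dTAG. In NPC it measured 0.317, 0.479 and 0.559 CPM in WT, 0.675, 0.359 and 0.528 in dCD, and 0.297, 0.685 and 0.313 in MLL2dTAG. No library had more than 31 counts, and the WT and dCD libraries of ESC had 0 to 6. Hes5 was higher in NPC than in ESC in WT (2.13 ± 0.730, adjusted p = 0.0037; 3.37 without ESC WT replicate 3) and dCD (1.91 ± 0.671, adjusted p = 0.006). In MLL2dTAG the stage change was 0.73 (95% interval -0.37 to 1.83). No change against WT was called, and the intervals were wide: -1.34 to 2.17 in ESC dCD, -0.19 to 2.91 in ESC MLL2dTAG, -0.81 to 1.18 in NPC dCD and -1.04 to 0.95 in NPC MLL2dTAG. Without ESC WT replicate 3, the ESC MLL2dTAG change (2.60, adjusted p = 0.024) and its interaction (-2.64, adjusted p = 0.048) passed the threshold. A difference in Hes5 between genotypes was not detectable at this depth.

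Other genes of the Hes and Hey family, only some of which are known as Notch-responsive repressors, were counted as a list of 8. Of the 8, 6 were tested (Hes7 and Helt were not). In ESC, 0 were higher and 2 lower in dCD, and 0 higher and 3 lower in MLL2dTAG, so that 2 and 3 of 6 were called against 48.3% and 56.9% of all genes. Hey1 fell from 9.30 CPM in ESC WT to 3.92 in dCD (-1.24 ± 0.129) and 5.43 in MLL2dTAG (-0.75 ± 0.112). Hey2 fell from 3.26 CPM to 1.64 (-0.96 ± 0.214) and 2.22 (-0.53 ± 0.190). Hes6, a Hes1 antagonist of the neuronal lineage, fell in MLL2dTAG (23.4 to 13.8 CPM, -0.76 ± 0.087).

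In NPC the Hey genes did not follow a single direction. Of the 6 genes, 3 were higher and 1 lower in dCD, and 2 higher and 1 lower in MLL2dTAG, beside 53.5% and 61.7% of all genes called. Hey2 rose from 3.35 CPM in NPC WT to 8.40 in dCD (1.33 ± 0.153) and 10.7 in MLL2dTAG (1.68 ± 0.150). Hey1 fell in NPC dCD (28.4 to 15.4 CPM, -0.89 ± 0.081) and rose in NPC MLL2dTAG (to 42.5 CPM, 0.58 ± 0.074). Heyl fell in NPC MLL2dTAG (4.73 to 2.52 CPM, -0.91 ± 0.221). The Hey2 interaction was 2.29 ± 0.263 for dCD and 2.21 ± 0.242 for MLL2dTAG, and the 2 values share the WT libraries.

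The rest of the pathway was described from 4 lists of 45 genes, all tested: the ligand side, receptor processing with Notch4, the nuclear complex, and turnover and feedback. Over WT differentiation 28 were higher and 12 lower (39.1% and 40.4% of all genes), with a median of 0.32 against -0.04 over all genes. Dlk1, a secreted and membrane-bound Delta-like protein, rose from 3.31 to 339 CPM (6.73 ± 0.121). Notch4, the fourth receptor, fell from 23.2 to 1.71 CPM (-3.75 ± 0.117). The coactivators Maml3 and Maml2 rose (3.80 ± 0.124 and 3.32 ± 0.123), and Dtx1, an ubiquitin ligase that modulates Notch, fell from 32.0 to 4.35 CPM (-2.86 ± 0.111). Rbpj, named here in addition to the rule for list genes and after its values were seen, fell from 206 to 94.1 CPM (-1.13 ± 0.037).

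Against WT, these 45 genes were 17 higher and 16 lower in ESC dCD, 20 higher and 14 lower in ESC MLL2dTAG, 12 higher and 20 lower in NPC dCD, and 16 higher and 18 lower in NPC MLL2dTAG. Over all genes the shares higher and lower were 25.7% and 22.6%, 28.7% and 28.2%, 26.7% and 26.8%, and 33.3% and 28.4%, in that order. The medians of the 45 genes were -0.04, 0.09, -0.10 and -0.06, against 0.02, 0, -0.02 and 0.03 over all genes. Neurl1b, an ubiquitin ligase that promotes ligand endocytosis, was lower in all 4 comparisons (-1.31 ± 0.184, -1.02 ± 0.166, -1.26 ± 0.141 and -1.14 ± 0.137 in that order). On the ligand side, 6 of 7 genes were lower in NPC dCD and 1 was higher. Notch4 fell in ESC dCD (23.2 to 15.7 CPM, -0.56 ± 0.075) and rose in ESC MLL2dTAG (to 49.4 CPM, 1.09 ± 0.067). Adam10, the protease of the first activating cleavage, rose from 191 CPM in NPC WT to 300.2 in dCD (0.65 ± 0.035) and 349 in MLL2dTAG (0.87 ± 0.035). Furin, which matures the receptor, rose in NPC dCD (54.8 to 80.2 CPM, 0.55 ± 0.048) and had 76.9 CPM in NPC MLL2dTAG. L3mbtl3, an RBPJ-binding repressor, fell in MLL2dTAG at both stages (-1.38 ± 0.091 in ESC and -0.98 ± 0.054 in NPC) and rose in ESC dCD (0.67 ± 0.074). Dtx4 fell 11.2 to 3.26 CPM in ESC MLL2dTAG (-1.79 ± 0.091).

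Among the proneural genes of the Neurog and Neurod families and Atoh1, whose transcription Hes repressors are known to silence, 4 of 6 were higher and 2 lower in NPC WT than in ESC WT. Neurog2 went from 0 counts to 4.31 CPM, Neurod4 from 0.0663 to 4.62 CPM and Neurog1 from 0.125 to 5.29 CPM. In NPC dCD, 1 of 6 rose against WT (Neurog1, 5.29 to 7.19 CPM, 0.44 ± 0.156, adjusted p = 0.018) and 0 fell. In NPC MLL2dTAG, 0 of 6 rose and 4 fell, among them Neurog2 (4.31 to 1.87 CPM, -1.20 ± 0.209) and Neurod1 (3.43 to 1.93 CPM). Over all genes, 39.1% were higher and 40.4% lower over WT differentiation. Against NPC WT these shares were 26.7% and 26.8% in dCD, and 33.3% and 28.4% in MLL2dTAG.

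**Figure D5:**
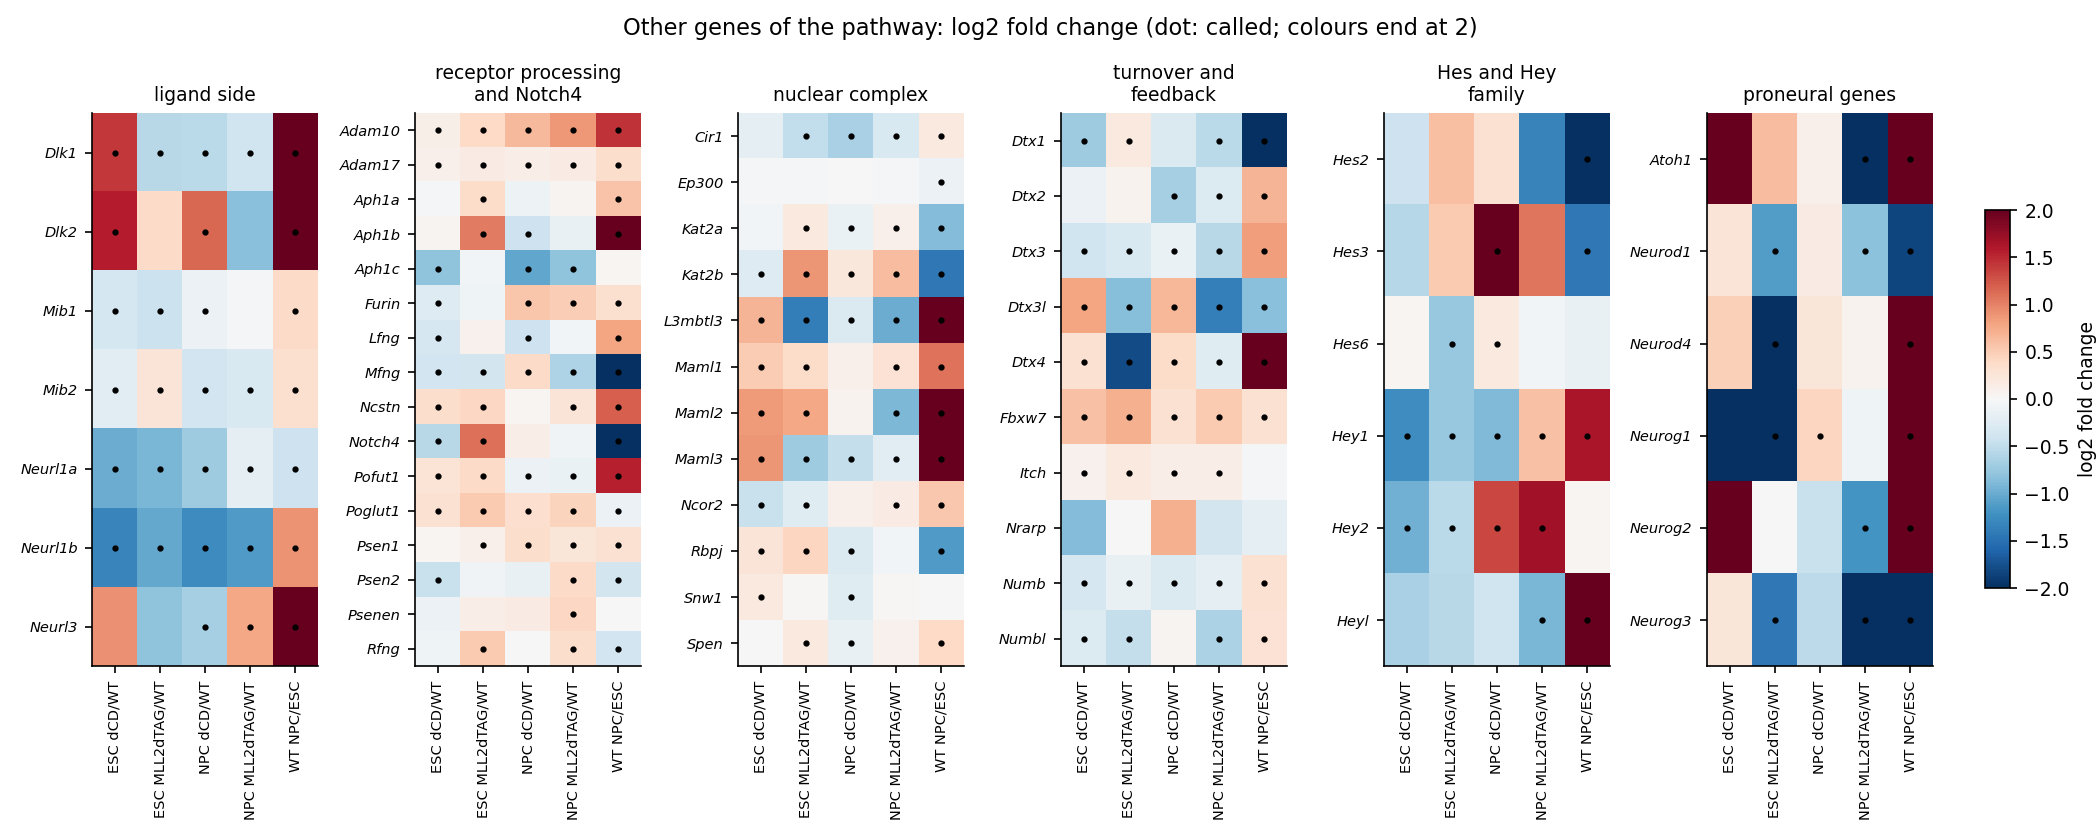
Each cell gives the log2 fold change of 1 tested gene (rows, by list) in 1 comparison (columns), from blue at -2 or less to red at 2 or more, and dots mark genes that passed the test. Neurl1b is blue with a dot in the 4 columns against WT, and Hey2 is blue in both ESC columns and red in both NPC columns.

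Genes whose level followed a member most closely were listed as a description, by Pearson correlation over log2 CPM of the 18 libraries among 11805 genes compared. The libraries fall into 6 groups of 3, so these values rest mostly on the group means. Hes1 was followed most closely by Fuca1 (0.945), Limk2 (0.935) and Rab21 (0.918). Dll1 was followed by Prosc (0.965), Zfp346 (0.965) and Rev1 (0.962). For Hes5 the closest were Mamld1 (0.869), 3222401L13Rik (0.853) and Brf2 (0.852), and its counts were too few for its own spread to be small.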

How the data were processed

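The authors deposited whole-number read counts per gene symbol, not normalized, and these counts were used as deposited. Counting used HTSeq, per the submitters' processing notes, and the kit was TruSeq Stranded mRNA, per the labels' protocols. The aligner, genome build and annotation are not given in the sources used here. Column names gave each library's sample. Some columns matched no single sample, 6 of them beside those used and 12 in the other file, and were not used, so the dCD cells with MLL2dTAG and the earlier set of libraries were not analysed here.

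The members and gene lists were chosen with earlier results of these data known. The analysis ran in edgeR 4.0.16 (R 4.3.3): filterByExpr left 20511 genes, TMM factors were 0.967 to 1.05, and the 18 libraries entered 1 quasi-likelihood model of 6 group means (12 residual degrees of freedom, common dispersion 0.00161). Tests were two-sided F tests with Benjamini-Hochberg adjustment over all genes. Changes are log2 fold changes with SE from the fitted weights. The procedure was tested on simulated data. Low counts were more often even (60.8% to 66.5% of counts from 1 to 10), so halved counts were among the alternatives. Between replicates the chi-square per degree of freedom was 2.19 to 10.5. Counts that are not independent also raise this value, so it cannot tell technical repeats from separate cultures. The highest values, 10.5 and 8.38, were both of pairs with ESC WT replicate 2, and the other pairs were at 4.43 or less. List genes were named where called, with a mean of 1 CPM or more, among the 3 largest changes of their list. A gene of the proneural list is not reported here. Lengths and positions came from GENCODE vM21, and promoters from RefSeq. The alternatives were other scalings, DESeq2 1.42.0, other filters, fits on the groups compared, a replicate block, leaving out each library and, chosen after seeing the data, offsets for GC content and length.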

Additional observations from a re-analysis of the deposited data

Results flagged for a closer look

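For 11 results the change against WT differed between the stages by the interaction test of edgeR over all genes. In dCD the change was more positive in NPC than in ESC for Dll1 (interaction 2.16 on the log2 scale), Jag1 (1.54), Notch1 (1.03), Notch3 (0.84) and Hes1 (0.59). In MLL2dTAG it was more positive for Dll1 (3.03), Dll3 (1.06), Notch2 (0.89) and Notch3 (0.43), and more negative for Jag2 (-0.81) and Notch1 (-0.24). The change was called with opposite signs at the 2 stages, ESC first, for Dll1 (-1.45 and 0.72), Jag1 (-0.47 and 1.07) and Notch3 (-0.44 and 0.40) in dCD, and for Dll1 (-2.11 and 0.92) and Notch2 (-0.65 and 0.24) in MLL2dTAG. The interactions of both lines share the WT libraries. Interactions were called for 42.9% of all genes in dCD and 49.0% in MLL2dTAG. The share of all genes called with opposite signs at the 2 stages was not counted, so whether such switches are unusual cannot be told.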

How the results depend on the processing

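Of 3047 values of the 10 genes under alternatives, 2964 kept their direction and side of the threshold, 46 were no longer called, 33 became called and 4 reversed. Of 78 calls, 65 held under every alternative run. Hes5 and Dll4 have fewer alternatives, because filters on low counts removed them in some. The 4 reversals came with offsets for GC content and length, available for 95.8% of tested genes: Notch3 in NPC MLL2dTAG against WT (0.05 in place of -0.11), Notch3 and Hes1 over WT differentiation (-0.30 and 0.22, in place of 0.21 and -0.03) and Notch1 over dCD differentiation (-0.30 in place of 0.49). The cause was not tested. In NPC MLL2dTAG against WT, 5 to 9 members were called when 1 library was left out, the lowest without NPC WT replicate 2. Upper-quartile scaling moved the median of all genes by -0.12 over MLL2dTAG differentiation, and in NPC MLL2dTAG against dCD it moved the share of higher among called genes from 56.5% to 45.2% (45.3% with library totals alone).

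Replicate numbers did not pair the libraries: of 45 same-numbered pairs, 0 correlated above 0.1 (-0.026 to 0.024), and 6 of 18 libraries correlated best with their own number. With a replicate block, the members called stayed at 5 in ESC dCD and 9 in NPC MLL2dTAG, and of all genes 12506 were called in the latter against 12665. Depth limits Hes5 and, in ESC, Dll4, with 0 to 31 and 0 to 22 counts a library.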
